A study of Caenorhabditis elegans with 12 samples.

Results

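The transcript response to sodium azide of Caenorhabditis elegans larvae that lack the microRNA gene *mir-71* was read from 6 of the 12 libraries of the study, 3 of deletion larvae on water and 3 of deletion larvae on azide, taken by their labels. Deletion larvae were of strain MT12993, which carries the *mir-71(n4115)* deletion allele, and wild-type larvae were of strain N2. Both groups of deletion larvae carry the deletion, so their comparison sets azide against water within that genotype, and the 6 N2 libraries (3 on water, 3 on azide) enter where the 2 genotypes' responses are compared. All animals came from timed egg laying, grew on plates whose lawns of OP50 bacteria had received either water or sodium azide, and were collected whole when they reached the last larval stage (L4). By the methods the 3 replicates of a group are biological. The methods' paragraph on RNA-seq names no azide dose. A separate methods section gives a dose for the miR-71 induction experiments, with larvae on azide from the first larval stage to L4. Whether these libraries followed that exposure is not stated there. The deletion is represented by 1 strain.

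Azide blocks complex IV, the last enzyme of the mitochondrial respiratory chain. Worms answer failing respiration with several programs that are read out as transcripts: the mitochondrial unfolded protein response (UPRmt), in which the factors ATFS-1 and DVE-1 raise mitochondrial chaperones, the hypoxia and sulfide response of the factor HIF-1, and stress genes of the insulin pathway's factor DAF-16. miR-71 is a small RNA that lowers messages carrying its target site, and the study examines it as a brake on the UPRmt. Genes of molting, the cuticle and the germ line, whose levels move with larval stage, are given beside the stress genes.

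The microRNA itself is not measured by libraries of this kind. The genotype labels were set beside *ppfr-1*, the gene that holds *mir-71* in an intron and lies on chromosome I from 9364777 to 9389982 of build WBcel235. Its level was 426, 465 and 431 CPM on water and 541, 549 and 796 CPM on azide in the deletion. In N2 it was 103 ± 3.72 CPM on water and 105 ± 2.30 CPM on azide (SD, n = 3 in each), so that all 6 deletion libraries lay above all 6 N2 libraries. This sets the labelled genotypes apart but does not show which of them carries the deletion. The water and azide labels were not checked by it. In the deletion *ppfr-1* itself rose on azide (log2 fold change of 0.51, standard error 0.128, edgeR adjusted p = 0.0113). That call was lost without replicate 1 on water, when the 2 deletion groups were fitted alone (with or without azide replicate 3), and under centring on neuron markers.

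Levels are given in CPM, counts scaled to a common library total after TMM factors correct that total for composition, and log2 fold changes are azide against water from an edgeR fit of all 12 libraries. A gene was called at a Benjamini-Hochberg adjusted p under 0.05. The deletion libraries held 16828108 to 23937993 counts. The third azide replicate stood apart from its partners on the second principal component of the 6 libraries (60.02 against -42.9 and -22.1, a component that held 23.4% of the variance), and the first water replicate was low for several cuticle genes, so results that rest on these libraries are given without them. The larvae were whole, and in such bulk RNA fewer cells of a type and less RNA per cell cannot be told apart.

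Azide moved a wide set of transcripts in the deletion. Of 15048 genes tested, 1856 rose (12.3% of those tested) and 1744 fell (11.6%), and 763 of the rises and 695 of the falls were at least 2-fold. In 5379 genes (35.7%) the 3 azide libraries did not overlap the 3 water libraries, with azide above in 2748 and below in 2631. Among the 3600 called genes, 3374 had no overlap. The median log2 fold change over all genes tested was 0.04. Without replicate 1 on water the calls came to 1047 higher and 1126 lower, and without replicate 2 on water to 1204 and 1216. Without azide replicate 1 they came to 1220 and 1355, and in a fit of the 2 deletion groups alone to 774 and 900. The split depended on the scaling: rises were 51.6% of the calls, 62.7% when each library was centred on its ribosomal protein genes, 41.2% when centred on neuron markers and 72.5% when centred on body wall muscle markers. The median of all genes was then 0.11 for the ribosomal and 0.24 for the muscle centring. Centring scaled each library by the median level of the marker genes, not by their median change. Under the neuron centring the neuron markers thus kept a median log2 fold change of -0.18, against -0.13 with TMM factors.

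**Figure D1:**
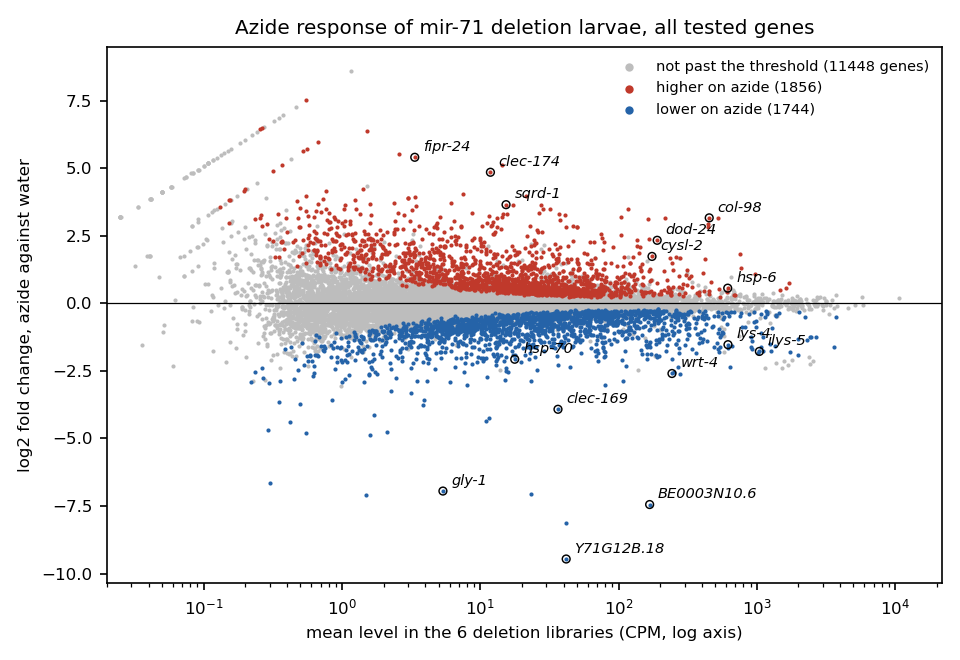
Log2 fold change of azide against water in the deletion (vertical axis) against the mean level in the 6 deletion libraries (CPM, log axis), 1 point for each of 15048 genes tested. Red points rose (1856 genes), blue points fell (1744) and grey points did not pass the threshold; the falls reach further from 0 than the rises among well-measured genes, down to -9.46 for Y71G12B.18.

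The 12 largest rises held small proteins and peptides, a lectin, a reductase, a collagen and many genes with no described product. *fipr-24*, a member of a family of small proteins related to those induced by fungal infection, stood at 0.178, 0.16 and 0.104 CPM on water and 6.89, 5.89 and 6.92 CPM on azide. All 3 azide libraries lay far above water (log2 fold change of 5.40, standard error 0.503, edgeR adjusted p = 1.16e-05). *clec-174*, a C-type lectin (a family of sugar-binding proteins many of which are secreted), stood at 0.803, 0.558 and 1.04 CPM on water and 26.2, 17.9 and 24.5 CPM on azide. Its groups were again far apart (log2 fold change of 4.85, standard error 0.271, edgeR adjusted p = 1.09e-07), and its rise was larger in the deletion than in N2 (log2 difference of 2.44, standard error 0.356, edgeR adjusted p = 0.000977). *nspe-6*, which encodes a nematode-specific peptide, stood at 0.268, 0.0399 and 0 CPM on water and 2.85, 3.60 and 8.67 CPM on azide, with every azide library above water (log2 fold change of 5.50, standard error 0.719, edgeR adjusted p = 0.000302). Y47H9C.1, with no described product, went from between 0.669 and 0.993 CPM on water to between 19.0 and 34.9 CPM on azide (log2 fold change of 5.13, standard error 0.286, edgeR adjusted p = 1.09e-07). *T05H4.4*, annotated as a NADH-cytochrome b5 reductase, an enzyme that passes electrons to cytochrome b5, stood at 0.134, 0.718 and 0.209 CPM on water and 4.14, 3.73 and 8.97 CPM on azide, without overlap (log2 fold change of 3.91, standard error 0.487, edgeR adjusted p = 0.000135). Of the remaining 7 of the 12 largest rises, *dpy-17* is a cuticle collagen and 6 (*K07A1.6*, Y62H9A.3, Y68A4A.13, *H29C22.1*, *C34F11.8* and *ZK813.7*) have no described product, with log2 fold changes from 3.65 to 4.05. In 4 of these 6, *K07A1.6*, Y62H9A.3, *H29C22.1* and *ZK813.7*, the third azide replicate was the lowest on azide, for *H29C22.1* at 1.28 CPM against 8.29 and 7.34, and in Y68A4A.13 and *C34F11.8* it was the highest.

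The 5 largest falls named here took transcripts from well measured to almost none, while called changes of at least 8-fold numbered 88 rises and 25 falls. Y71G12B.18, on chromosome I from 1652916 to 1655333 and with no described product, stood at 80.3, 103 and 67.4 CPM on water and 0.0998, 0.0879 and 0.154 CPM on azide. Every azide library lay under 1 CPM (log2 fold change of -9.46, standard error 0.29, edgeR adjusted p = 3.71e-10). *BE0003N10.6*, on chromosome III from 1056271 to 1060046, stood at 329, 394 and 278 CPM on water and 1.997, 2.06 and 1.64 CPM on azide (log2 fold change of -7.45, standard error 0.276, edgeR adjusted p = 1.68e-08). The neighbours *D1014.6* and *D1014.7* on chromosome V fell together, with log2 fold changes of -8.14 and -7.06, and reads may be divided between such adjacent copies. *gly-1*, which encodes a glycosyltransferase of the type that builds branched sugars on proteins, stood at 10.04, 14.7 and 7.21 CPM on water and 0.2, 0 and 0.0513 CPM on azide. It fell by 6.95 on the log2 scale (edgeR adjusted p = 9.57e-06). In N2 these 5 transcripts were lower on azide by a similar order, with log2 fold changes from -7.98 to -4.94. Only for *BE0003N10.6* among the 5 did the difference between genotypes pass the threshold, and that call was lost under 13 of the 20 alternative settings that give a difference. Other steep falls were of the lectins *clec-169* (-3.92) and *clec-247* (-3.59), the hedgehog-related gene *grd-11* (-3.75), the collagen *col-152* (-4.23), *thn-2* (-3.02), of the thaumatin-like family tied to defence against bacteria, and *F54D10.8* (-4.37) and *R05A10.7* (-3.30), with no described product.

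Genes of the hypoxia and hydrogen sulfide response were among the clearest rises. Of 24 tested members of this list, 8 rose and 3 fell, against 12.3% and 11.6% of all genes tested. The falls were near that share. The median log2 fold change of the list was 0.15 against 0.04 over all genes. The count of rises was 8 under each of the 5 other scalings. *sqrd-1*, the mitochondrial enzyme that oxidises hydrogen sulfide, stood at 2.59, 2.39 and 1.78 CPM on water and 22.4, 27.5 and 35.5 CPM on azide. All azide libraries were above all water libraries (log2 fold change of 3.65, standard error 0.216, edgeR adjusted p = 1.97e-07). *ethe-1*, whose enzyme acts next on the persulfide that this oxidation leaves, stood at 3.21, 3.91 and 2.72 CPM on water and 7.19, 8.04 and 8.05 CPM on azide, without overlap (log2 fold change of 1.24, standard error 0.209, edgeR adjusted p = 0.00116).

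*cysl-2*, an enzyme of the cysteine synthase family that handles cyanide and sulfide in worms, stood at 78.0, 84.8 and 79.4 CPM on water and 215, 298 and 291 CPM on azide. The azide libraries lay well above water in all 3 replicates (log2 fold change of 1.73, standard error 0.141, edgeR adjusted p = 3.37e-06). Its relative *cysl-3* rose less, from 36.3 to 41.9 CPM on water to 70.4 to 82.1 CPM on azide (log2 fold change of 0.95, standard error 0.116, edgeR adjusted p = 0.000103). *nhr-57*, a nuclear hormone receptor widely used as a reporter of HIF-1, stood at 4.46, 2.95 and 3.71 CPM on water and 14.8, 15.99 and 22.1 CPM on azide (log2 fold change of 2.25, standard error 0.208, edgeR adjusted p = 1.1e-05). *rhy-1*, which encodes a membrane protein that restrains HIF-1 and is itself raised by it, stood at 20.04, 22.2 and 19.1 CPM on water and 57.2, 67.1 and 68.0 CPM on azide, again without overlap (log2 fold change of 1.65, standard error 0.123, edgeR adjusted p = 1.53e-06). *gst-19*, a glutathione S-transferase on the list, rose by 3.06 on the log2 scale, and *F22B5.4*, a known marker of hypoxia with no described product, by 1.16. The message of *hif-1* itself overlapped between the groups, at 268, 242 and 269 CPM on water and 186, 240.0 and 290.4 CPM on azide (log2 fold change of -0.12, standard error 0.129, edgeR adjusted p = 0.529). The falls were *phy-2* (-0.41), a collagen prolyl hydroxylase, *mpst-4* (-0.60), a sulfurtransferase, and *suox-1* (-0.30), sulfite oxidase. All 3 falls were lost when the 2 groups were fitted alone, without replicate 2 on water, and under the ribosomal, neuron and muscle centrings. Those of *mpst-4* and *suox-1* were also lost without water replicate 1, azide replicate 1 or any of N2 water replicates 1 and 3 and the 3 N2 azide replicates, that of *mpst-4* without water replicate 3, and that of *suox-1* without azide replicate 2 or N2 water replicate 2. Among the 8 rises 0 of the differences from N2 passed the threshold by edgeR (2 with an unadjusted p below 0.05, DESeq2 0).

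**Figure D2:**
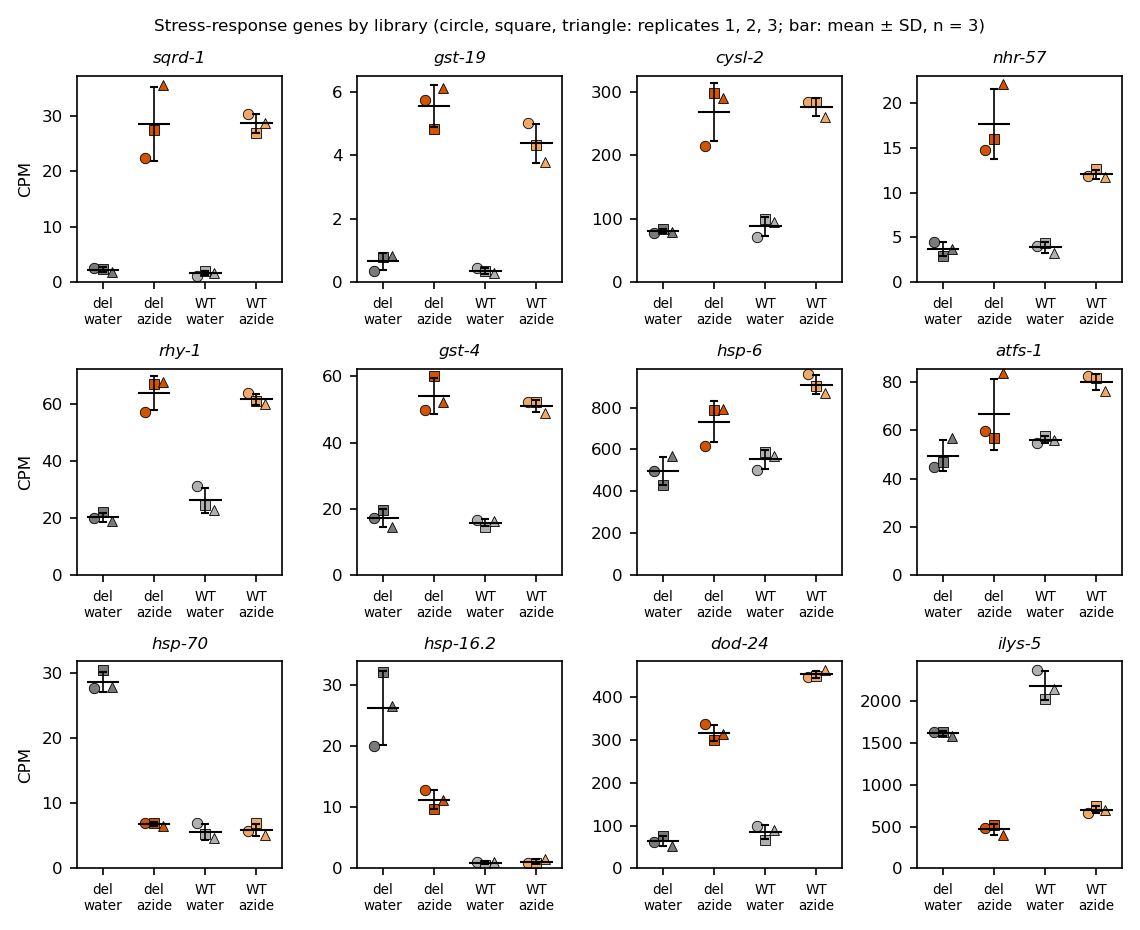
Levels (CPM, linear axis from 0) of 12 stress genes in each library of the deletion (del) and of wild type (WT) on water and on azide. Circles, squares and triangles are replicates 1, 2 and 3 and bars are the mean ± SD of 3. The azide libraries of *sqrd-1*, *gst-19*, *cysl-2*, *nhr-57*, *rhy-1*, *gst-4* and *dod-24* lie above water in both genotypes, while *hsp-70* and *hsp-16.2* are highest in the deletion on water and lower there on azide.

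Mitochondrial chaperones and regulators of the UPRmt moved less. Of 24 tested members of this list, 9 rose and 1 fell (of all genes 12.3% and 11.6%), with a median of 0.34. Rises numbered 1 under the neuron centring, 4 under the muscle centring, 2 in the 2 groups fitted alone and 5 without water replicate 1 or 2. Falls numbered 2 without water replicate 3 and 4 without azide replicate 3, 2 with DESeq2 or upper-quartile size factors and 0 under the muscle centring or in the 2 groups fitted alone. *hsp-6*, the mitochondrial Hsp70 chaperone and standard reporter of the UPRmt, stood at 496, 431 and 567 CPM on water and 618, 786 and 795 CPM on azide. The azide libraries lay above water by a narrow gap (log2 fold change of 0.56, standard error 0.125, edgeR adjusted p = 0.00631), and the call was lost in the 2 groups fitted alone (with or without azide replicate 3) and under the neuron centring. *hsp-60*, its partner chaperonin, stood at 685, 559 and 769 CPM on water and 692, 905 and 951 CPM on azide. Its azide replicate 1 lay among the water libraries and it did not pass the threshold (log2 fold change of 0.34, standard error 0.141, edgeR adjusted p = 0.095).

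The histone methyltransferase *met-2*, which acts in chromatin changes that go with the UPRmt, stood at 41.01, 41.9 and 47.6 CPM on water and 82.6, 73.1 and 61.8 CPM on azide (log2 fold change of 0.74, standard error 0.113, edgeR adjusted p = 0.000596). *atfs-1*, the main transcription factor of the response, stood at 44.8, 46.9 and 56.9 CPM on water and 59.5, 56.9 and 83.5 CPM on azide. Its groups touched, with azide replicate 2 level with water replicate 3 to the digits given, and although it was called (log2 fold change of 0.43, standard error 0.135, edgeR adjusted p = 0.0353) the call was lost under 13 of 22 alternative settings, among them each of the fits without replicate 1 or 2 on water, azide replicate 3, and N2 water replicate 3 or azide replicate 1 or 2. *dve-1*, the factor that the study places under miR-71, stood at 24.9, 24.8 and 23.4 CPM on water and 17.8, 19.1 and 28.2 CPM on azide. Azide replicates 1 and 2 were below water and replicate 3 above it (log2 fold change of -0.17, standard error 0.172, edgeR adjusted p = 0.512). *ubl-5*, a ubiquitin-like partner of DVE-1, did not pass the threshold (-0.26, edgeR adjusted p = 0.27). Of the study's other candidate targets of miR-71, *dct-1*, a mitophagy receptor, rose (log2 fold change of 0.64, standard error 0.189, edgeR adjusted p = 0.0263), a call lost without water replicate 1 or azide replicate 1, under the neuron and muscle centrings and in the 2 groups fitted alone (with or without azide replicate 3). The autophagy gene *atg-2* (-0.00, edgeR adjusted p = 0.986) and the insulin receptor gene *daf-2* (0.37, edgeR adjusted p = 0.0807) did not pass it. The single fall of the list was *trap-1* (-0.48), which in worms is annotated as a translocon-associated protein of the endoplasmic reticulum rather than a mitochondrial chaperone, and whose call was lost in the 2 groups fitted alone and under the muscle centring. Of the 10 genes named in these 2 paragraphs, the effect of azide differed from that in N2 for 0 by edgeR (1 with an unadjusted p below 0.05, DESeq2 0).

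Transcripts of the respiratory chain, the target of azide, gave few calls. Of 12 tested subunits of complex I, 0 were called by edgeR, 0 had an unadjusted p under 0.05 and 0 were called by DESeq2 (median 0.00, turning positive at 0.06 and 0.18 under the ribosomal and muscle centrings). Of 15 genes of complexes II and III 1 rose, a call lost under 12 of 22 alternative settings. These were the fits without water replicate 1 or 2, azide replicate 1 or 3, or N2 water replicate 3, with DESeq2 or upper-quartile size factors, under the neuron and muscle centrings, with the replicate block and in the 2 groups fitted alone (with or without azide replicate 3). Of 11 genes of the ATP synthase 0 were called by edgeR, 2 were higher at an unadjusted p under 0.05 and 1 was called higher by DESeq2, and 1 rose under the ribosomal centring. Among 6 nuclear genes of complex IV and its assembly, *cox-10* (0.41) and *cox-15* (0.34), which make the heme of this complex, rose, both lost under the neuron and muscle centrings, in the 2 groups fitted alone and without water replicate 1 or 2, that of *cox-15* also without azide replicate 2 or 3. The table holds 0 genes of the mitochondrial genome. Enzymes of sugar metabolism leaned upward, with 8 of 27 higher and 1 lower (of all genes 12.3% and 11.6%). Rises numbered 1 under the neuron centring, 1 in the 2 groups fitted alone and 4 without water replicate 1, 3 without water replicate 2 and 5 without azide replicate 2 or 3. Falls numbered 0 under the 3 centrings on marker genes or in the 2 groups fitted alone. *pck-1*, the enzyme that draws carbon from the citric acid cycle into glucose, stood at 281, 185 and 309 CPM on water and 438, 525 and 699 CPM on azide, without overlap (log2 fold change of 1.10, standard error 0.183, edgeR adjusted p = 0.00121). *ldh-1*, lactate dehydrogenase, rose by 0.45 on the log2 scale (edgeR adjusted p = 0.0091), a call lost in the 2 groups fitted alone and under the neuron centring.

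Inducible chaperones of the cytosol fell more often than they rose. Of 5 tested genes of this list 3 fell (of all genes 11.6%), with a median of -1.22. *hsp-70*, an inducible Hsp70 chaperone, stood at 27.7, 30.5 and 27.8 CPM on water and 6.99, 6.99 and 6.46 CPM on azide. The azide libraries lay close together and far below water (log2 fold change of -2.07, standard error 0.169, edgeR adjusted p = 3.41e-06). *hsp-16.2*, a small heat shock protein, stood at 20.04, 32.1 and 26.7 CPM on water and 12.8, 9.75 and 11.2 CPM on azide (log2 fold change of -1.22, standard error 0.228, edgeR adjusted p = 0.00215). *F44E5.5*, a further Hsp70 gene, fell from low levels (1.25, 1.79 and 2.30 CPM on water and 0.349, 0.264 and 0.564 CPM on azide; edgeR adjusted p = 0.00219).

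In N2 *hsp-70* stood at 5.62 ± 1.19 CPM on water and 5.95 ± 0.916 CPM on azide (SD, n = 3 in each) and *hsp-16.2* at 0.884 ± 0.25 CPM on water and 1.08 ± 0.402 CPM on azide (SD, n = 3 in each). The fall in the deletion thus began from a higher level on water. On azide the 3 deletion libraries of *hsp-70* lay at 6.46 to 6.99 CPM, and those of *hsp-16.2* stayed above N2. The azide effect differed between genotypes for *hsp-70* (log2 difference of -2.15, standard error 0.241, edgeR adjusted p = 0.000193) and for *hsp-16.2* (log2 difference of -1.53, standard error 0.403, edgeR adjusted p = 0.0293), the latter lost under 7 of the 20 alternative settings that give a difference: the muscle centring and the fits without water replicate 2 or 3, azide replicate 2, N2 water replicate 1 or 2, or N2 azide replicate 3. *hsp-16.41* (-0.81) and *hsp-16.11* (-1.01) did not pass the threshold in the deletion, and reads of the near-identical hsp-16 genes may be divided between copies. Of the other small heat shock genes, *sip-1*, which encodes a small chaperone of oocytes and embryos, stood at 48.1, 45.3 and 67.8 CPM on water and 395, 243 and 199 CPM on azide (log2 fold change of 2.38, standard error 0.229, edgeR adjusted p = 4.29e-05). *hsp-43* rose by 0.70 and *hsp-12.3* fell by 1.52 on the log2 scale.

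Stress genes that respond to DAF-16 or to the insulin pathway rose more often than they fell. Of 20 tested, 8 rose and 3 fell, against 12.3% and 11.6% of all genes. The list's median of 0.35 kept its sign under all 5 other scalings, and 1 member fell under the muscle centring. The list does not separate genes that DAF-16 raises from genes that it lowers, and the activity of DAF-16 was not tested. *dod-24*, a CUB-domain gene also used as a marker of infection, stood at 61.5, 75.8 and 52.1 CPM on water and 337, 299.8 and 315 CPM on azide. The groups were widely separate (log2 fold change of 2.33, standard error 0.153, edgeR adjusted p = 4.53e-07). *dod-22*, of the same family, stood at 2.99, 3.07 and 2.98 CPM on water and 12.4, 13.0 and 13.0 CPM on azide, with almost no spread within groups (log2 fold change of 2.08, standard error 0.17, edgeR adjusted p = 3.37e-06). *dod-17* (1.499), *hil-1* (1.62), a linker histone, and *lea-1* (0.73), a protein that protects cells when they dry out, also rose. *dao-3* fell (log2 fold change of -1.45, standard error 0.156, edgeR adjusted p = 4.19e-05). *daf-16* itself did not pass the threshold (0.13, edgeR adjusted p = 0.343).

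Peroxide and toxin defence showed strong single genes in lists of mixed direction. List counts stand beside 12.3% of all genes that rose and 11.6% that fell. The falls of the glutathione S-transferases were near that share. *ctl-1*, a cytosolic catalase, stood at 22.1, 21.6 and 22.4 CPM on water and 59.5, 65.5 and 81.1 CPM on azide (log2 fold change of 1.64, standard error 0.116, edgeR adjusted p = 9.38e-07). The peroxisomal catalase *ctl-2*, a close copy of *ctl-1* with which reads may be shared, rose by 1.23 on the log2 scale. Of the metallothioneins, which bind metals, *mtl-1* rose (0.134, 0.558 and 0.627 CPM on water and 1.45, 1.89 and 2.10 CPM on azide; edgeR adjusted p = 0.00935). *mtl-2* fell (38.6, 33.8 and 26.8 CPM on water and 19.9, 22.2 and 23.3 CPM on azide; edgeR adjusted p = 0.0124), a call lost without water replicate 1 and under the muscle centring. Of 40 glutathione S-transferases, which join toxins to glutathione, 9 rose and 4 fell, with a median of -0.11 that became 0.08 under the muscle centring. Falls numbered 2 without water replicate 2 and 2 under the ribosomal centring and 1 under the muscle centring or in the 2 groups fitted alone. *gst-4*, the usual reporter of the oxidative stress factor SKN-1, stood at 17.3, 19.8 and 14.4 CPM on water and 49.8, 60.01 and 52.2 CPM on azide (log2 fold change of 1.65, standard error 0.124, edgeR adjusted p = 1.53e-06). *gst-24* rose by 2.43 and *gst-38* by 1.999, and the rise of *gst-24* was larger than in N2 (log2 difference of 1.47, standard error 0.265, edgeR adjusted p = 0.00395). Among 60 cytochrome P450 genes, oxidases of drugs and lipids, 14 rose and 14 fell. The median was -0.10, and 0.08 under the muscle centring. Rises numbered 9 without water replicate 1 or azide replicate 1 and 8 in the 2 groups fitted alone. Falls numbered 9 without water replicate 2, 5 under the muscle centring and 8 in the 2 groups fitted alone. *cyp-33C8* stood at 3.17, 4.11 and 3.55 CPM on water and 17.3, 21.6 and 34.8 CPM on azide (log2 fold change of 2.76, standard error 0.247, edgeR adjusted p = 8.58e-06), and *cyp-13B1* rose by 2.40. *cyp-35B1*, a gene of the DAF-16 program, fell in the deletion (log2 fold change of -2.08, standard error 0.432, edgeR adjusted p = 0.00402) with a mean log2 fold change of 0.43 in N2, and the difference passed the threshold (log2 difference of -2.51, standard error 0.581, edgeR adjusted p = 0.0166). Of 62 glucuronosyltransferases, 18 rose and 13 fell, the falls numbering 8 without water replicate 2, 8 under the ribosomal centring or in the 2 groups fitted alone and 4 under the muscle centring.

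Secreted antibacterial proteins fell more often than they rose, where 12.3% of all genes rose and 11.6% fell. Of 32 tested lysozymes, saposin-like and thaumatin-like genes, which act on bacteria in the gut, 19 fell and 3 rose, with a median of -0.79 and 9 to 19 falls under the 5 other scalings. *ilys-5*, an invertebrate lysozyme, stood at 1632, 1635 and 1581 CPM on water and 488, 523 and 398 CPM on azide. Every azide library lay far below every water library (log2 fold change of -1.78, standard error 0.113, edgeR adjusted p = 3.84e-07). *lys-4* stood at 915, 1061 and 780.4 CPM on water and 299.8, 361 and 292 CPM on azide (log2 fold change of -1.53, standard error 0.128, edgeR adjusted p = 4.32e-06), and *lys-5* fell by 2.54. *thn-2* stood at 13.2, 13.2 and 16.7 CPM on water and 2.05, 1.93 and 1.28 CPM on azide (log2 fold change of -3.02, standard error 0.211, edgeR adjusted p = 8.44e-07), and its fall was larger than in N2 (log2 difference of -2.53, standard error 0.278, edgeR adjusted p = 0.000175). The rises were *lys-2* (96.4, 90.9 and 75.3 CPM on water and 181, 233 and 194 CPM on azide; log2 fold change of 1.21, standard error 0.111, edgeR adjusted p = 1.02e-05), *lys-1* (0.77) and *spp-8* (0.57, lost under the neuron centring). Lectins were divided, with 26 of 148 higher and 29 lower (24 to 25 and 17 to 30 over the 5 other scalings). Antimicrobial peptides of the skin were divided too (5 higher, 3 lower of 15): *nlp-28* rose by 2.11, while *nlp-33* fell from 274, 254 and 226 CPM on water to 101, 131 and 144 CPM on azide (edgeR adjusted p = 0.000664). Among these peptides rises numbered 2 without water replicate 1 and 3 in the 2 groups fitted alone. Falls numbered 5 without azide replicate 3.

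Genes of fat metabolism fell more often than they rose, where 12.3% of all genes rose and 11.6% fell. The rises of the acyl-CoA list were below that share. Of 22 desaturases and elongases, which make unsaturated and long fatty acids, 9 fell, with a median of -0.13 that became 0.06 under the muscle centring, where 2 rose and 1 fell. Under the ribosomal centring 4 rose and 7 fell, in the 2 groups fitted alone 5 fell, and rises numbered 2 without water replicate 3 or azide replicate 1 and 1 without azide replicate 2 or 3. *fat-7*, a stearoyl-CoA desaturase, stood at 279, 322 and 299 CPM on water and 163, 136 and 99.0 CPM on azide. The azide libraries lay below water in all replicates (log2 fold change of -1.18, standard error 0.141, edgeR adjusted p = 9.64e-05), and the fall was larger than in N2 (log2 difference of -0.89, standard error 0.197, edgeR adjusted p = 0.0135). *fat-6*, the second desaturase of this kind, stood at 749, 839.5 and 729 CPM on water and 457, 463 and 443 CPM on azide (log2 fold change of -0.77, standard error 0.0931, edgeR adjusted p = 0.000108), a call lost under the muscle centring. In acyl-CoA metabolism and beta-oxidation 6 of 62 rose and 15 fell, with a median of -0.11 that became 0.08 under the muscle centring, where 4 rose and 4 fell. Rises numbered 3 without azide replicate 1 and 11 without azide replicate 3, 3 under the neuron centring and 2 in the 2 groups fitted alone. Falls numbered 8 under the ribosomal centring, 7 under the neuron centring and 6 in the 2 groups fitted alone. *acs-2*, an acyl-CoA synthetase that rises in fasting worms, stood at 14.6, 13.0 and 25.7 CPM on water and 32.8, 37.8 and 63.5 CPM on azide (log2 fold change of 1.34, standard error 0.295, edgeR adjusted p = 0.00832), and *acox-1.5*, a peroxisomal acyl-CoA oxidase, rose by 1.06. *cpt-4*, of the carnitine palmitoyltransferase family that admits fatty acids to mitochondria, stood at 123, 114 and 93.2 CPM on water and 33.9, 44.1 and 44.4 CPM on azide (log2 fold change of -1.44, standard error 0.141, edgeR adjusted p = 1.85e-05), and the acyl-CoA dehydrogenase *acdh-6* fell by 1.61.

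The machinery of protein making and breakdown stayed within small changes. Its counts stand beside 12.3% of all genes that rose and 11.6% that fell. Of 80 cytosolic ribosomal proteins 3 fell (10 without azide replicate 3, 1 without water replicate 1 or 3 or N2 azide replicate 3, 0 without water or azide replicate 2, 5 with upper-quartile factors and 0 under the 3 centrings on marker genes and in the 2 groups fitted alone). Of 65 mitochondrial ones 2 rose (1 without water replicate 1 or azide replicate 3, 1 with upper-quartile factors, under the muscle centring or in the 2 groups fitted alone and 0 under the neuron centring). The medians were -0.02 and -0.02, and their signs turned under the ribosomal and muscle centrings. Of 33 proteasome subunits 11 fell, with a median of -0.23. That count depended on the scaling, with 21 falls under upper-quartile factors and 0 under the ribosomal, neuron or muscle centring and in the 2 groups fitted alone. It was 4 without water replicate 1 and 7 without water replicate 3, azide replicate 2 or N2 water replicate 3, and the median was 0.01 under the muscle centring. Of 24 genes of the endoplasmic reticulum stress response 4 fell, against 0 under the same 3 centrings, 1 in the 2 groups fitted alone and 1 without water replicate 1 and 2 without water replicate 2. Of 28 genes of autophagy 6 rose, against 1 under the neuron centring, 1 under the muscle centring and 1 in the 2 groups fitted alone. *epg-9*, a partner of the kinase that starts autophagy, stood at 13.2, 15.9 and 16.1 CPM on water and 23.2, 26.8 and 29.03 CPM on azide (log2 fold change of 0.80, standard error 0.154, edgeR adjusted p = 0.00252).

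**Figure D3:**
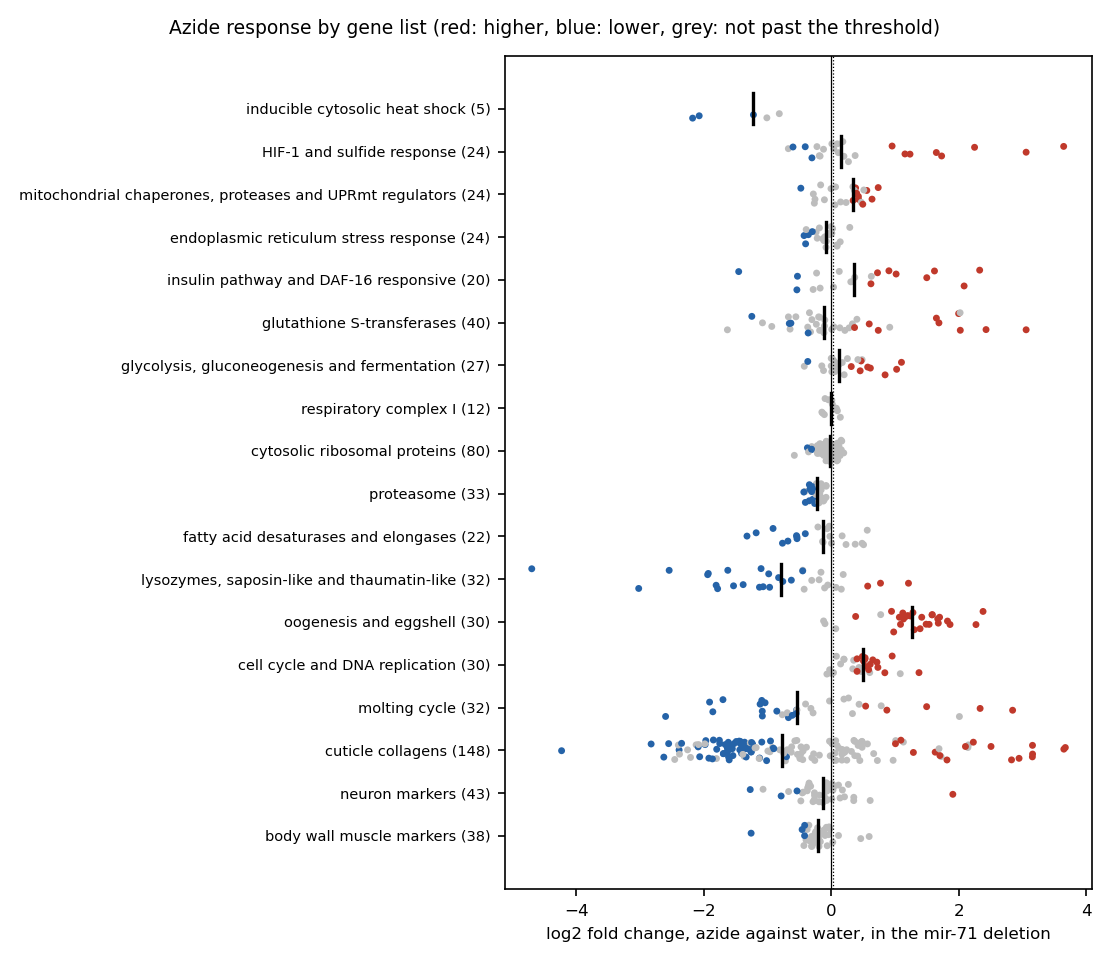
Log2 fold change of azide against water in the deletion (horizontal axis) for every tested member of 18 gene lists, with the number tested in brackets. Red points rose, blue points fell, grey points did not pass the threshold, black bars are list medians, and the dotted line is the median of all genes (0.04). Medians run from -1.22 for inducible heat shock to 1.26 for oogenesis. Under centring on muscle markers the medians of the endoplasmic reticulum stress, glutathione S-transferase, proteasome, desaturase and neuron lists turn positive, and those of complex I and the ribosomal proteins do so under that and the ribosomal centring.

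Genes of the female germ line rose together, and by how much depended on the library. Of 30 tested genes of oogenesis and the eggshell 26 rose (of all genes 12.3%), with a median of 1.26. The count was 14 under the neuron centring, 10 in the 2 groups fitted alone and 11 without water replicate 1, 9 without water replicate 2 and 16 without azide replicate 1. Summed over the list, the level was 1346, 1053 and 1576 CPM on water and 4332, 2803 and 1699 CPM on azide. Azide replicate 1 was the highest, and replicate 3 lay just above the water libraries. *cpg-3*, a chondroitin proteoglycan of the eggshell, stood at 22.4, 20.8 and 25.04 CPM on water and 191, 98.0 and 39.9 CPM on azide, in the same order (log2 fold change of 2.27, standard error 0.44, edgeR adjusted p = 0.00543). *nos-2*, a Nanos protein that oocytes store for the embryo's germ cells, stood at 1.12, 1.44 and 2.61 CPM on water and 16.2, 6.94 and 3.44 CPM on azide (log2 fold change of 2.38, standard error 0.511, edgeR adjusted p = 0.00761). *puf-5*, an RNA-binding protein of oocytes, rose by 1.82 and *cpg-2*, a further eggshell proteoglycan, by 1.68. In N2 the median of the oogenesis list was larger, at 2.50. The median of the difference was -1.09, and 0 of its members differed positively and 6 negatively past the threshold.

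Of 30 cell cycle and DNA replication genes 15 rose (median 0.50), with 0 calls under the neuron centring, 3 in the 2 groups fitted alone and 3 without water replicate 1 or azide replicate 1 and 5 without water replicate 2. The germline proliferation and meiosis list had 6 rises of 28 (2 without water replicate 2 or azide replicate 1, 3 without azide replicate 2 and 12 without azide replicate 3). It had 0 under the neuron centring, 3 under the muscle centring and 1 in the 2 groups fitted alone. Among the rises was *glp-1*, the Notch receptor that keeps germline stem cells (0.61, edgeR adjusted p = 0.00474, lost under the neuron centring). Sperm genes went unevenly, beside 12.3% of all genes that rose and 11.6% that fell. The major sperm proteins, near-identical copies whose reads may be divided, summed to 1092, 901 and 1307 CPM on water and 2417, 2248 and 642 CPM on azide. Azide replicates 1 and 2 were above water and replicate 3 below it. Of the list, 3 of 30 rose with all libraries, 28 without azide replicate 3, 1 without water replicate 3, any N2 water replicate or N2 azide replicate 1, and 0 without water replicate 1 or 2, without azide replicate 1 or 2, under the neuron centring and in the 2 groups fitted alone. Of 34 genes of spermatogenesis 1 rose and 5 fell (median 0.17, and -0.02 without azide replicate 2), against 14 rises and 4 falls without azide replicate 3. Rises were 0 to 2 under the other scalings, and falls 3 under the ribosomal centring, 2 under the neuron centring or in the 2 groups fitted alone and 1 under the muscle centring. Among the falls, *fog-3*, which commits germ cells to sperm, stood at 17.2, 13.0 and 21.5 CPM on water and 6.79, 6.33 and 11.3 CPM on azide (log2 fold change of -1.08, standard error 0.229, edgeR adjusted p = 0.00453), and *spe-44*, a transcription factor of spermatogenesis, fell by 0.78, a call lost under the muscle centring. Of 6 yolk protein genes, made by the adult intestine, 0 were called by edgeR, 1 was lower at an unadjusted p under 0.05, 1 was called lower by DESeq2, and 4 fell without azide replicate 1 and 1 without azide replicate 2. Their sum was 2548, 2250 and 2226 CPM on water and 2130, 238 and 1046 CPM on azide, with a wide spread between the azide libraries. In N2 the sum was 4216 to 6191 CPM on water and 34570 to 44400 CPM on azide, and 6 of 6 rose (median 2.81). The difference between genotypes was called negative for 4 of 6 (median -3.77), against 3.8% of all genes. The part of these germline and stage lists in the other results was not tested.

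**Figure D4:**
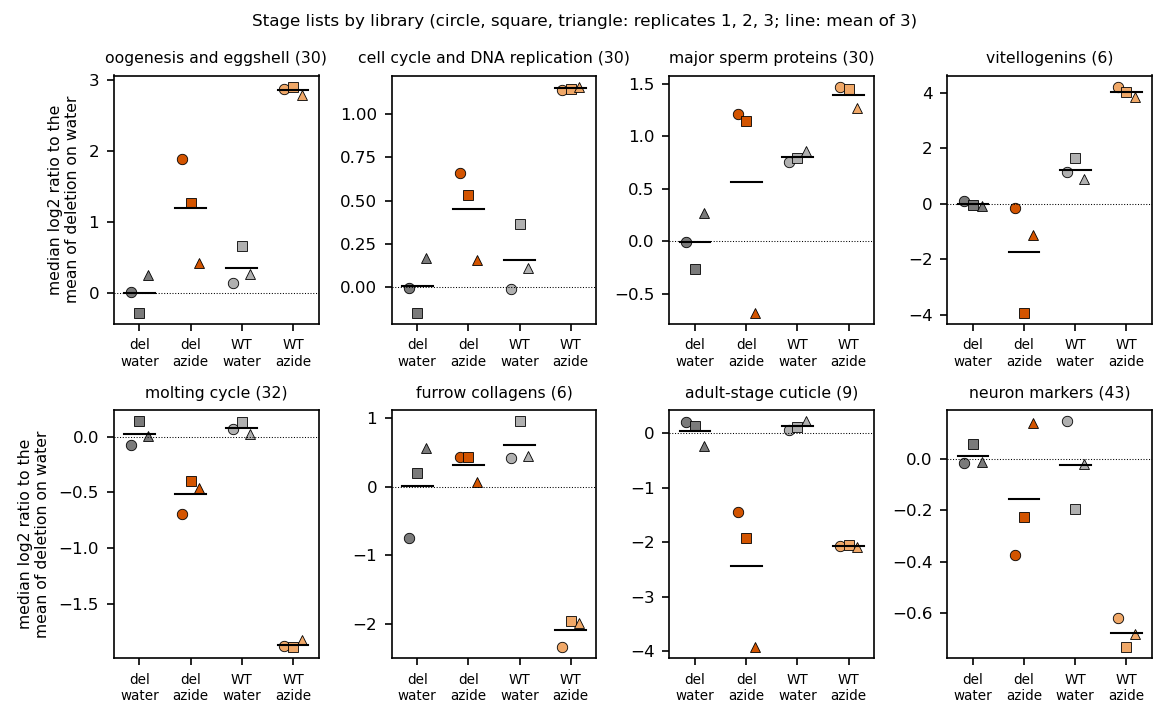
Median log2 ratio to the mean of the deletion on water, over the tested members of 8 stage and tissue lists (number in brackets), for each library of the deletion (del) and of wild type (WT). Circles, squares and triangles are replicates 1, 2 and 3 and lines are means of 3. In the deletion on azide the third replicate lies apart for the oogenesis list (0.42 against 1.89 and 1.27), the major sperm proteins (-0.68 against 1.21 and 1.15) and the adult-stage cuticle list (-3.92 against -1.44 and -1.93). The deletion's azide effect on the neuron list turns positive under the muscle centring.

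Genes of the cuticle and the molting cycle fell more often than they rose, where 11.6% of all genes fell and 12.3% rose. Worms replace their collagen cuticle at each molt, and its genes are made in waves. Of 32 genes of the molting cycle 14 fell and 5 rose (median -0.54), and of 148 cuticle collagens 55 fell and 16 rose (median -0.78). Both medians kept their sign under all 5 other scalings. Rises of the molting list numbered 3 without water replicate 2 or azide replicate 1 and 3 under the neuron centring or in the 2 groups fitted alone. Under the muscle centring falls numbered 9 in the molting list and 36 among the collagens. Among the falls, *wrt-4*, a hedgehog-related gene of molting skin, stood at 482, 434 and 336 CPM on water and 50.6, 132 and 24.4 CPM on azide (log2 fold change of -2.60, standard error 0.497, edgeR adjusted p = 0.0053). *mlt-10*, which is needed to shed the old cuticle, stood at 902, 790.2 and 689.7 CPM on water and 178, 393 and 163 CPM on azide, with azide replicate 2 the highest on azide (log2 fold change of -1.70, standard error 0.301, edgeR adjusted p = 0.00283). *qua-1*, a hedgehog-related gene needed for molting, fell by 1.12 and *grl-5* fell by 1.86. Among the rises, *dpy-6*, a mucin-like gene of body shape, stood at 4.51, 12.04 and 17.9 CPM on water and 53.6, 81.6 and 111 CPM on azide. Water replicate 1 was the lowest of all, and the azide libraries lay well above the rest (log2 fold change of 2.85, standard error 0.48, edgeR adjusted p = 0.00263). *let-653*, a secreted protein that holds tubes open, stood at 8.43, 19.9 and 27.5 CPM on water and 49.5, 53.3 and 54.3 CPM on azide, again lowest in water replicate 1 (log2 fold change of 1.497, standard error 0.312, edgeR adjusted p = 0.00624). The fibrillin-like *fbn-1*, which anchors the new cuticle, stood at 15.2, 47.6 and 73.2 CPM on water and 144, 264 and 277 CPM on azide (log2 fold change of 2.34, standard error 0.494, edgeR adjusted p = 0.00873), and its call was lost when the 2 groups were fitted alone without azide replicate 3, an alternative chosen after the data were seen.

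The collagens that fell include some of the most abundant. *sqt-3* stood at 2957, 2801 and 2746 CPM on water and 856, 1557 and 958 CPM on azide (log2 fold change of -1.33, standard error 0.178, edgeR adjusted p = 0.000231). *dpy-13* fell by 1.26 and *rol-6* fell by 1.09, and all 3 of these, which shape the larval body, fell less than in N2 (log2 differences of 1.58, 1.21 and 1.69, edgeR adjusted p = 0.00178, 0.0124 and 0.000158). The collagens that rose include *dpy-17*, which acts with *sqt-3* in the cuticle and stood at 2.14, 2.03 and 3.45 CPM on water and 32.9, 33.4 and 28.6 CPM on azide (log2 fold change of 3.65, standard error 0.207, edgeR adjusted p = 1.25e-07). *col-98* stood at 42.8, 104 and 126 CPM on water and 610.2, 697 and 1134 CPM on azide, lowest in water replicate 1 and highest in azide replicate 3 (log2 fold change of 3.16, standard error 0.37, edgeR adjusted p = 0.000304), and *col-42* (3.16) and *col-103* (2.95) were alike. Of the 6 furrow collagens, which form the rings of the cuticle, 0 were called in the deletion by edgeR, 0 had an unadjusted p under 0.05 and 0 were called by DESeq2 (median 0.21), and 1 rose without water replicate 3. In N2 6 of them fell (median -2.74), and the difference was called positive for 6. Of 9 genes of the adult-stage cuticle 4 fell, 7 without azide replicate 3 and 2 under the muscle centring. In the heterochronic list, genes that time larval stages, 2 of 18 rose and 1 fell (median 0.075), so the list as a whole moved little. Rises numbered 3 and falls 0 under the ribosomal centring, and 1 and 3 without azide replicate 3. Its member *lin-41*, which holds back adult fates, stood at 41.7, 37.6 and 56.0 CPM on water and 113, 106 and 109 CPM on azide (log2 fold change of 1.28, standard error 0.163, edgeR adjusted p = 0.000164).

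Markers of nerve and other tissues are set against the 12.3% of all genes that rose and the 11.6% that fell. Of 30 FMRFamide-like peptides 3 fell, of 45 other neuropeptides 4 fell, and of 43 neuron markers 3 fell and 1 rose. Falls of FMRFamide-like peptides numbered 1 without water replicate 2 or azide replicate 1 and 8 without azide replicate 3. Those of the other neuropeptides numbered 2 without water replicate 1 or 2 or azide replicate 2 and 11 without azide replicate 3, and those of the neuron markers 1 without water replicate 1 and 15 without azide replicate 3. Rises of the neuron markers numbered 0 without water replicate 2 and 2 without water replicate 3 or azide replicate 1 or 3. Under the muscle centring 0 fell in each of these 3 lists, and of the neuron markers 0 rose and 0 fell in the 2 groups fitted alone and 2 rose under the ribosomal centring. Of 13 markers of glia, the support cells of neurons, 6 fell and 2 rose (median -0.51). Falls numbered 0 under the muscle centring and 3 in the 2 groups fitted alone, and 4 to 8 with 1 library left out. Rises numbered 1 with DESeq2 size factors, with upper-quartile factors, under the neuron or muscle centring or in the 2 groups fitted alone. They numbered 0 without water replicate 1 or azide replicate 3 and 1 without water replicate 2, azide replicate 2, N2 water replicate 3 or N2 azide replicate 1 or 3. The median of the neuron markers was -0.13, and 0.03 under the muscle centring. The peptide gene *flp-28* stood at 57.2, 46.9 and 45.5 CPM on water and 29.6, 31.5 and 25.2 CPM on azide (log2 fold change of -0.79, standard error 0.119, edgeR adjusted p = 0.000519), lost under the muscle centring, and *nlp-51* fell by 1.02, lost likewise. The study's peptide genes *flp-1* (-0.20), *flp-2* (-0.26) and *nlp-52* (-1.15) and *unc-31* (-0.35), which releases peptides from dense-core vesicles, did not pass the threshold.

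Of 24 insulin-like peptides 2 rose and 3 fell, against 12.3% and 11.6% of all genes. The rises numbered 1 without water replicate 1 and 1 in the 2 groups fitted alone. The falls numbered 0 without water replicate 1 and 1 without water replicate 2 or azide replicate 1 or 2. They numbered 0 under the ribosomal or muscle centring and 1 under the neuron centring or in the 2 groups fitted alone. *ins-35* stood at 4.51, 7.14 and 10.4 CPM on water and 20.4, 11.7 and 18.3 CPM on azide (log2 fold change of 1.19, standard error 0.28, edgeR adjusted p = 0.00827), a call lost in the 2 groups fitted alone. In N2 it stood at 6.51 ± 1.27 CPM on water and 2.20 ± 0.181 CPM on azide (SD, n = 3 in each), and the difference passed the threshold (log2 difference of 2.75, standard error 0.417, edgeR adjusted p = 0.0013). *ins-27* did not pass it in the deletion (-0.05, edgeR adjusted p = 0.837), with a difference from N2 of 1.34 (edgeR adjusted p = 0.00213). In the intestine list 1 of 26 rose (2 without azide replicate 1 or 2, and 2 under the ribosomal centring) and 7 fell (12 without azide replicate 3, and 2 under the muscle centring). The digestive protease gene *cpr-3* stood at 13.4, 15.6 and 14.3 CPM on water and 53.7, 48.2 and 51.8 CPM on azide (log2 fold change of 1.83, standard error 0.102, edgeR adjusted p = 1.09e-07), while *cpr-1*, of the same cathepsin B family, stood at 454, 518 and 579.7 CPM on water and 196, 257 and 253 CPM on azide (log2 fold change of -1.14, standard error 0.121, edgeR adjusted p = 3.95e-05). Of 38 muscle markers 4 fell, a share near that of all genes, and 2 without water replicate 1, 15 without azide replicate 3 and 7 without N2 water replicate 1. The count was 7 with upper-quartile factors, 2 under the ribosomal centring and 1 under the muscle centring or in the 2 groups fitted alone. *pat-9*, a transcription factor of body muscle, stood at 30.4, 32.7 and 25.8 CPM on water and 7.04, 14.4 and 15.8 CPM on azide (log2 fold change of -1.26, standard error 0.233, edgeR adjusted p = 0.00214).

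On the X chromosome 16.7% of 2157 genes tested fell and 9.18% rose, against 8.15% to 12.6% and 11.0% to 14.9% on the 5 autosomes. The median log2 fold change was -0.13 on X and 0.03 to 0.08 on the autosomes. In N2 the X chromosome showed 39.5% falls and 13.6% rises. Germline genes are rare on the worm X chromosome, and the part of the oogenesis list in this split was not tested.

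Fewer genes were called on azide in the deletion than in N2, and most of them were called in the same direction there. In N2 4138 genes rose (27.5%) and 4079 fell (27.1%). Replicates of the deletion spread more, with a median SD of log2 CPM of 0.163 on water and 0.206 on azide. In N2 it was 0.13 and 0.101 (10088 genes). Without azide replicate 3 the deletion's calls came to 2407 higher and 2268 lower. Of the deletion's rises, 1465 were also rises in N2 (78.9% of the deletion's list and 35.4% of that of N2), and of its falls 1437 were falls in N2 (82.4% and 35.2%). Across 15048 genes, which are not independent replicates, the fold changes of both genotypes, from separate libraries, had a Pearson r of 0.68 and a Spearman rho of 0.67. The median absolute log2 fold change was 0.33 in the deletion and 0.59 in N2. The deletion rose where N2 fell in 69 genes and fell where N2 rose in 32, and 322 rises and 275 falls of the deletion were not called in N2. A call in 1 genotype only is not a difference: the difference between genotypes was called for 59 of the 322 and 44 of the 275.

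The test of the difference itself, the azide effect in the deletion minus that in N2, called 1003 genes more positive (6.67% of those tested) and 572 more negative (3.8%) in the deletion. Of the 1003, 927 were falls of N2, among which 527 were not called in the deletion and 331 fell there too. Of the 572, 519 were rises of N2, among which 378 were not called in the deletion and 109 rose there too. The split rested on the scaling, with positive differences at 63.7% of the calls, 52.3% with DESeq2 size factors, 78.4% with upper-quartile factors, 53.1% with the ribosomal, 21.2% with the neuron and 88.3% with the muscle centring. Positive differences numbered 668 without water replicate 1, 1608 without azide replicate 3, 643 without N2 water replicate 3, 661 without N2 azide replicate 1 and 629 without N2 azide replicate 2. Negative differences numbered 249 without water replicate 1, 362 without water replicate 3, 1616 without azide replicate 1, 290 without azide replicate 2, 953 without azide replicate 3, 236 without N2 water replicate 1, 186 without N2 water replicate 3, 216 without N2 azide replicate 1, 195 without N2 azide replicate 2 and 255 without N2 azide replicate 3.

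Cuticle genes were among the largest differences in both directions. *fbn-1* and *dpy-6*, higher on azide in the deletion, stood in N2 at 112 ± 17.8 CPM on water and 37.5 ± 9.90 CPM on azide (SD, n = 3 in each) and at 26.6 ± 8.45 CPM on water and 13.1 ± 4.21 CPM on azide (SD, n = 3 in each), giving a log2 difference of 3.91, standard error 0.691, edgeR adjusted p = 0.00825 and a log2 difference of 3.86, standard error 0.663, edgeR adjusted p = 0.00666. The collagen *col-176*, whose rise was lost in the 2 groups alone without azide replicate 3, stood at 9.24, 37.1 and 46.7 CPM on water and 176, 178 and 174 CPM on azide in the deletion and at 67.8 ± 15.8 CPM on water and 25.1 ± 5.91 CPM on azide (SD, n = 3 in each) in N2 (log2 difference of 3.94, standard error 0.654, edgeR adjusted p = 0.00581). Among the largest negative differences were collagens that rose in N2 and fell in the deletion. *col-140* stood at 409, 304 and 284 CPM on water and 199, 59.9 and 83.8 CPM on azide in the deletion and at 418 ± 87.8 CPM on water and 3544 ± 249 CPM on azide (SD, n = 3 in each) in N2 (log2 difference of -4.63, standard error 0.547, edgeR adjusted p = 0.00088). Its fall within the deletion was lost without water replicate 1, in the 2 groups fitted alone and under the ribosomal and muscle centrings. *col-81* (-4.78), *col-129* (-4.64), *col-139* (-4.72) and the near-identical pair *col-7* (-5.73) and *col-62* (-5.05) had differences of the same sign. *vap-2*, a venom-allergen-like secreted protein, fell in the deletion (1.52, 1.28 and 1.73 CPM on water and 0.0499, 0.527 and 0.205 CPM on azide) and stood in N2 at 1.26 ± 0.412 CPM on water and 17.9 ± 1.86 CPM on azide (SD, n = 3 in each) (log2 difference of -6.27, standard error 0.562, edgeR adjusted p = 9.82e-05). In the other direction *ugt-57*, a glucuronosyltransferase, stood at 1.61, 2.91 and 5.85 CPM on water and 10.6, 6.33 and 10.8 CPM on azide in the deletion and at 1.59 ± 0.513 CPM on water and 0.118 ± 0.111 CPM on azide (SD, n = 3 in each) in N2 (log2 difference of 5.13, standard error 0.847, edgeR adjusted p = 0.00263). The differences of *fbn-1*, *dpy-6*, *col-176*, *col-140*, *vap-2* and *ugt-57* passed the threshold under all 20 alternative settings that give a difference (the 2 fits of the deletion groups alone give none). Whether they mark a genotype's response to azide or a different stage at collection cannot be told apart from these libraries.

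**Figure D5:**
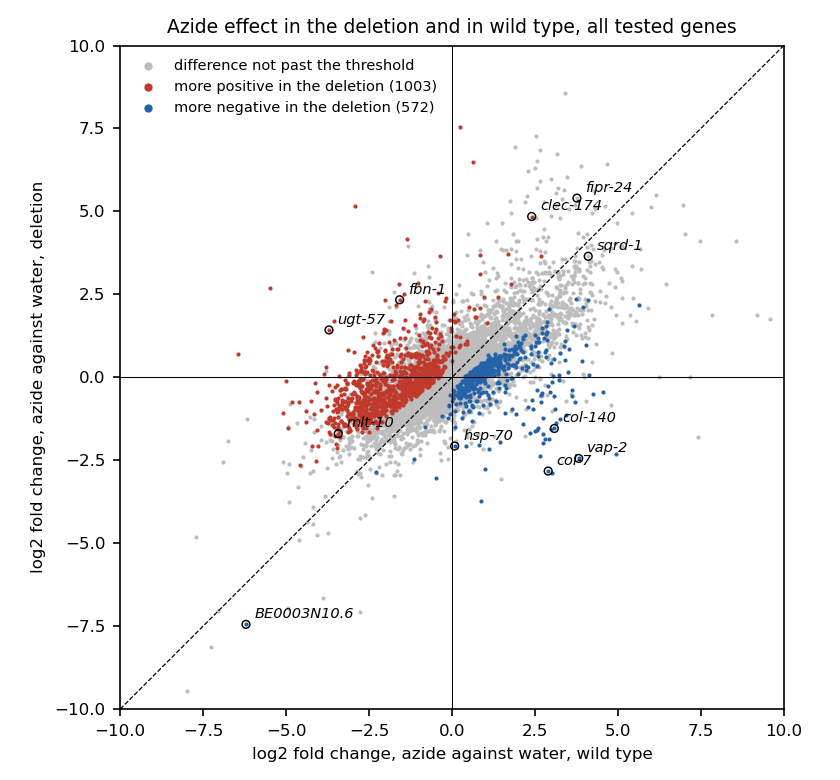
Log2 fold change of azide against water in the deletion (vertical axis) against that in wild type (horizontal axis), 1 point for each tested gene within 10 of 0 on both axes. Red points had a more positive effect in the deletion (1003 genes), blue points a more negative one (572), and the dashed line marks equal effects; with positive differences at 63.7% of the calls here, the neuron centring turns this majority to 21.2%. *sqrd-1* and *BE0003N10.6* lie near the line, *fbn-1* and *ugt-57* above it and *col-140* and *vap-2* below it.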

How the data were processed

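Poly(A) RNA of 12 libraries of whole larvae was measured, and 6 of them, 3 in each of 2 groups, form the comparison described. The authors trimmed reads with cutadapt 1.9.1, aligned them with HISAT2 2.0.1 to build WBcel235, counted reads per gene with HTSeq 0.6.1 and tested with DESeq2, in a version not given in the sources used here. Strand use in counting was not stated there either, so overlapping genes on opposite strands may share reads. The deposited counts are raw whole numbers, and every result rests on them. The deposited FPKM values, which the authors derived from these counts, were not used. 0 per-sample columns were left unused.

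One edgeR 4.0.16 model (R 4.3.3) covered all 12 libraries, with group means, TMM scaling and the robust quasi-likelihood test, two-sided, with Benjamini-Hochberg adjustment over 15048 of 20212 genes. These passed filterByExpr (minimum count 10 in 3 libraries, after scaling for depth, and minimum total 15). The difference between genotypes was tested as an interaction. Standard errors are approximate: each is the absolute log2 fold change or difference divided by the square root of the quasi-likelihood F statistic. Log2 CPM for list ratios used a prior count of 1. The fit was tested on simulated data. Total counts per library set the precision, and no share of counts is reported for a single sample.

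The comparison, the 46 gene lists and the named genes were chosen with earlier results of these data known. Names follow a rule: the 12 largest rises and 12 largest falls that were called, averaged 5 CPM or more in the higher group and did not overlap; the 8 largest positive and 8 largest negative differences that were called and reached 5 CPM in some group; the 3 largest called rises and falls of each list; the inducible heat shock genes; and genes the study names. *F22B5.4*, *bus-4*, *col-103*, *col-42*, *cpg-2*, *ctl-2*, *cysl-2*, *cysl-3*, *dod-17*, *dpy-13*, *ethe-1*, *fat-6*, *gst-38*, *gst-4*, *ilys-5*, *irg-4*, *irg-5*, *ldh-1*, *lea-1*, *lys-4*, *nspc-14*, *nspe-7*, *puf-5*, *rhy-1*, *rol-6* and *sqt-3* were named after their values were seen. Alternatives were DESeq2 1.42.0 as the test, DESeq2 or upper-quartile size factors, centring each library on ribosomal, neuron or muscle genes, no filter, a minimum log2 fold change of 1, the deletion groups alone, a replicate block, and leaving out each library.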

Additional observations from a re-analysis of the deposited data

Results flagged for a closer look

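The azide effect differed between the genotypes, by the interaction test, for 1003 genes that were more positive in the deletion and 572 that were more negative. Every value here is a log2 difference, the azide effect in the deletion minus that in N2, of a gene named above whose difference passed the threshold. Groups held 3 libraries, too few to test single libraries as outlying.

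Among cuticle and molting genes the difference was positive for *col-176* (3.94), *fbn-1* (3.91), *dpy-6* (3.86), *let-653* (2.99), *qua-1* (1.96), *mlt-10* (1.73), *rol-6* (1.69), *sqt-3* (1.58), *phy-2* (1.31), *dpy-13* (1.21), *dpy-17* (0.97) and *bus-4* (0.85). It was negative for *col-7* (-5.73), *col-62* (-5.05), *col-81* (-4.78), *col-139* (-4.72), *col-129* (-4.64) and *col-140* (-4.63). Among genes of stress, defence and metabolism it was positive for *ugt-57* (5.13), *clec-174* (2.44), *gst-24* (1.47), *cpr-3* (1.14), *lys-4* (0.72) and *ctl-1* (0.57), and negative for *vap-2* (-6.27), *thn-2* (-2.53), *cyp-35B1* (-2.51), *hsp-70* (-2.15), *irg-5* (-1.57), *hsp-16.2* (-1.53), *hsp-43* (-1.22), *fat-7* (-0.89) and *mtl-2* (-0.88). Among peptide, germline, timing and undescribed genes it was positive for *ins-35* (2.75), *C34F11.8* (2.02), *fog-3* (1.47), *ins-27* (1.34) and *flp-1* (1.17) and negative for *BE0003N10.6* (-1.24) and *lin-41* (-0.92). Of the 20 alternative settings that give a difference, the call was lost under 17 for *ctl-1*, 15 for *bus-4* and *dpy-17*, 13 for *BE0003N10.6*, 9 for *mlt-10*, 8 for *lys-4*, 7 for *hsp-16.2*, 6 for *C34F11.8*, *flp-1* and *lin-41*, 4 for *mtl-2*, 2 for *cpr-3* and *fog-3* and 1 for *dpy-13*, *fat-7*, *gst-24*, *hsp-43*, *ins-27* and *phy-2*.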

How the results depend on the processing

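The 4 counts of genes called moved by more than 1.5 times under some settings, and the cause was not tested. Genes higher on azide (1856) numbered 792 under the neuron centring and 774 in the 2 groups fitted alone, and 763 at a log2 fold change of at least 1. Genes lower (1744) numbered 1054, 1130 and 502 under the ribosomal, neuron and muscle centrings, 900 in the 2 groups fitted alone and 695 at a log2 fold change of at least 1. Positive differences from N2 (1003) numbered 509, 291 and 462 under the ribosomal, neuron and muscle centrings. Negative differences (572) numbered 343 with upper-quartile factors, 1081 under the neuron and 61 under the muscle centring, 1313 by DESeq2 and 216 at a log2 difference of at least 1. With 1 library left out, the counts ranged from 1047 to 2407 higher, 1126 to 2268 lower, 629 to 1608 positive and 186 to 1616 negative. An alternative chosen after the data were seen, the 2 groups alone without azide replicate 3, called 1678 higher and 1582 lower. In the fit of all 12 libraries the 4 groups share 1 estimate of the spread for each gene. The median SD of log2 CPM over 10088 genes was 0.206 in the deletion on azide and 0.101 in N2 on azide. With the replicate number as a block, 1505 genes were higher and 1508 lower, with 865 positive and 360 negative differences. Same-numbered deletion libraries did not deviate together (correlations of 0.01, -0.07 and 0.00), so the block pairs them by number only. The fold change of *hif-1*, not called, turned from -0.12 to 0.051 under the muscle centring and to 0.013 without azide replicate 1 (-0.311 to 0.013 with 1 library left out). That of *atg-2* (-0.00, not called) was 0.043 and 0.159 under the ribosomal and muscle centrings and -0.195 to 0.148 with 1 library left out, and that of *ins-27* (-0.05, not called) was 0.031, 0.194 and -0.163 to 0.041. Of 3059 alternative values for the fold changes of 133 named genes, 2906 kept direction and side of the threshold, 133 lost the call, 11 gained one and 9 changed sign. Of 840 for differences between genotypes 717 kept both and 123 lost the call. Of 2116 counts of list members 436 moved by more than 1.5 times, and of 1058 list medians 25 moved by more than the spread between replicates. Depth (16828108 to 23937993 counts) limits genes near the filter, and with 3 libraries in each group changes under the spread between replicates were not detectable.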

Other observations

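Several families of nematode-specific secreted peptides held many called genes, where 12.3% of all genes rose and 11.6% fell. They were picked after their values were seen and are described by counts only, with no test of a family, and the reads of near-identical members may be divided between copies. Of 7 tested nspe genes 6 rose, with a median log2 fold change of 3.32. *nspe-7* stood at 2.45, 3.67 and 2.46 CPM on water and 12.3, 16.1 and 15.03 CPM on azide (log2 fold change of 2.33, standard error 0.269, edgeR adjusted p = 7.47e-05). Of 16 tested nspc genes, all on the X chromosome, 10 fell, with a median of -1.61. *nspc-14* stood at 61.3, 74.0 and 74.8 CPM on water and 28.2, 30.2 and 25.2 CPM on azide (log2 fold change of -1.33, standard error 0.152, edgeR adjusted p = 6.93e-05). Of 20 fipr genes 9 rose and 1 fell, with a median of 1.47, and rises numbered 4 without water replicate 1, 5 without azide replicate 3 and 3 in the 2 groups fitted alone. The signs of these 3 medians were the same under the 5 other scalings. Of 10 tested nspb genes and 9 tested nspd genes, families with related names, 0 were called by edgeR and 0 by DESeq2, with medians of 0.92 and 0.27.

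The irg, bus, ptr and grl families were likewise picked after their values were seen and are described by counts only. They stand beside 12.3% of all genes that rose and 11.6% that fell. The irg genes do not stand for defence genes at large. Of 32 lysozymes, saposin-like and thaumatin-like genes 19 fell, and lectins were divided, with 26 of 148 higher and 29 lower. Of 7 irg genes, named for their response to pathogens, 4 rose (median 1.22). *irg-4* stood at 121, 163 and 93.5 CPM on water and 337, 349.6 and 386 CPM on azide (log2 fold change of 1.51, standard error 0.176, edgeR adjusted p = 9.64e-05). *irg-5* rose by 1.06. Of 8 bus genes, several of which build the surface coat that some bacteria bind, 5 fell (median -0.74), and in N2 8 fell (median -2.42). The difference between genotypes was called positive for 8, and for 5 to 8 over the 20 alternative settings that give one. *bus-4*, a glycosyltransferase, stood at 56.2, 57.6 and 42.8 CPM on water and 14.8, 22.1 and 13.2 CPM on azide (log2 fold change of -1.64, standard error 0.178, edgeR adjusted p = 4.58e-05), and its difference from N2 was lost under 15 of these 20 settings. Of 22 patched-related ptr genes, which act in molting skin, 3 rose and 12 fell (median -0.53), with 7 falls under the muscle centring. Of 18 hedgehog-related grl genes 9 fell (median -0.84), with 5 falls under the muscle centring, and 3 rose without azide replicate 2, 2 by DESeq2 and 1 without water replicate 3, without N2 water replicate 2 or with the replicate block. The signs of these medians were also kept under the 5 other scalings.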
